A study of Homo sapiens with 9 samples.

Results

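WNT ligands are secreted lipid-modified proteins that bind Frizzled receptors together with LRP5 or LRP6. In the canonical branch this protects beta-catenin from degradation, and beta-catenin then acts with TCF and LEF factors on target genes, of which AXIN2 is a classical feedback target. In skin the pathway is known for its part in hair follicle formation and in keeping basal keratinocytes and follicle stem cells. The genes described here are 10 of the 78899 gene IDs counted in each library. They comprise the ligands WNT4, WNT5A, WNT7A, WNT7B and WNT10A, the secreted modulators DKK1 and DKK3, the nuclear factors LEF1 and TCF7L2, and AXIN2. They were listed by name with measured levels of these libraries already known, and which values led to the choice is not recorded. Their levels, fold changes and counts of calls are therefore given as a description, and no p-value of a single member is given.

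The cells were HaCaT, an established line of immortalized human keratinocytes, so every library comes from 1 cell line. Of the 9 libraries, 3 are labelled BD and 3 NBD, each a subpopulation, and 3 are labelled control and come from the line as such. The sort was by fluorescence, and neither the 2 names nor the sorting gate is spelled out in the labels. All cells were grown in high-glucose DMEM with fetal bovine serum at low calcium, and total RNA was depleted of rRNA and made into stranded libraries. The series' design text states an interest in cell states linked to progenitors. Whether the replicates of a group are separate cultures is not stated, and the spread behind each p-value may thus be technical.

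Total counts ranged from 17128797 to 29512856 per library. Control replicates 1 and 2 stood apart from control replicate 3 in many genes, so results against control are given with all 9 libraries, without control replicate 3, and with control replicate 3 as sole control. The 10 keratinocyte markers summed to between 2945 and 3374 CPM in BD, 2587 and 3126 CPM in NBD, and 2850 and 3777 CPM in control. Single markers were less even than their sum. In control replicates 1, 2 and 3, KRT15 stood at 27.0, 27.3 and 441 CPM. KRT5 ran the other way at 1011, 1240 and 367 CPM, as did ITGA6 at 768, 742 and 322 CPM. TP63 was even there, at 300, 282 and 285 CPM. CPM here is the usual scaling of a count to its library total, after TMM adjustment, with TMM factors from 0.862 to 1.09. The 8 fibroblast markers summed to 4.09 to 5.23 CPM in BD, 2.89 to 4.21 in NBD and 0.765 to 5.23 in control, with THY1 at 0 counts throughout. COL1A1 had the highest mean of them, with 2.78, 3.10 and 3.75 CPM in BD, 2.18, 2.23 and 1.22 CPM in NBD, and 0.255, 0.728 and 3.20 CPM in control. The 6 melanocyte markers summed to 2.84 to 4.47 CPM in BD, 3.14 to 5.62 in NBD and 3.93 to 4.82 in control. The 8 immune cell markers summed to 4.72 to 7.13 CPM in BD, 3.96 to 6.95 in NBD and 0.672 to 6.73 in control, with CD2 at 0 counts throughout. The 5 endothelial markers summed to 11.9 to 19.0 CPM in BD, 6.73 to 16.3 in NBD and 1.85 to 16.8 in control. CDH5, an adhesion molecule of endothelium, made up most of that sum in all libraries but control replicates 1 and 2, at 14.5, 11.8 and 18.8 CPM in BD, 15.6, 5.91 and 11.9 CPM in NBD, and 1.07, 0.784 and 16.6 CPM in control. VWF, the other endothelial marker that passed the filter on low counts, ran the other way, at 0.416, 0.118 and 0.0688 CPM in BD, 0.592, 0.702 and 0.157 CPM in NBD, and 1.53, 1.06 and 0.0752 CPM in control. The part of these markers in the results was not tested. In bulk RNA, fewer cells of a type and less RNA per cell cannot be told apart.

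The upstream sequences of WNT4 and DKK1 are shown as examples, because control replicates 1 and 2 were the lowest of the 9 libraries for WNT4 and the highest for DKK1. This was not particular to them, as the same libraries were also the lowest for WNT10A and LEF1 and the highest for DKK3. Each is the 250 bases before the start of transcription in RefSeq (GRCh38.p14), printed 5′ to 3′ on the strand of the gene. WNT4 lies at chr1:22143098-22143347 on the minus strand, within the span of the WNT4 gene in GENCODE 29 and in none of its exons. DKK1 lies at chr10:52314031-52314280 on the plus strand and overlaps an exon of the antisense gene PRKG1-AS1. Capitals mark the letters GGGCGG, known as a GC box, TATAAA, known as a TATA box, and a pair of cores bound by TCF and LEF factors, CTTTGAT with the base A and CTTTGTT with the base T, searched on both strands.
WNT4: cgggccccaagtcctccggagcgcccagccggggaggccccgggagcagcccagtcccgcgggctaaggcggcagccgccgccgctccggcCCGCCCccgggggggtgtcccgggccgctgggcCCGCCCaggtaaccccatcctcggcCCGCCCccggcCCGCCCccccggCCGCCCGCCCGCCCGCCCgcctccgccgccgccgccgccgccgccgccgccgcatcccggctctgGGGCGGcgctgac
DKK1: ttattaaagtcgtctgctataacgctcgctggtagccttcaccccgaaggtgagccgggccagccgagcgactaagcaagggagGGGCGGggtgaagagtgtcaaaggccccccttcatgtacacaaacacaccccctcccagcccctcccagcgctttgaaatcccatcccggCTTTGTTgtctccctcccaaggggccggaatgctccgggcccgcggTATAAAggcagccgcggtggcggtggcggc

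The WNT4 stretch holds 9 matches to GGGCGG, some of which overlap one another, and no match to the other 3 motifs. Its G and C content is 86.8%, a value reached by 0.17% of 35116 RefSeq windows of the same length, whose median is 58.0%. The DKK1 stretch holds 1 match each to the CTTTGTT core, the TATA box and the GC box, and its G and C content of 62.8% is reached by 38.72% of windows. Of all windows, 2.3% hold CTTTGAT, 4.5% hold CTTTGTT, 10.7% hold TATAAA and 42.6% hold GGGCGG. A window was found for 7 of the 10 genes. CTTTGTT was also found in a window of TCF7L2, and CTTTGAT in none of the 7.

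Per kilobase of exon, WNT10A was the most abundant of the 19 WNT ligand transcripts in each library. This ligand is needed in human skin for hair, tooth and sweat gland development and for the renewal of palm and sole epidermis, and its gene lies at GRCh38 chromosome 2, 218880363 to 218899581. It stood at 109.7, 109.5 and 113 CPM in BD, at 92.4, 63.6 and 80.9 CPM in NBD, and at 11.9, 15.8 and 103 CPM in control. All BD libraries lay above all NBD and control libraries, while NBD lay below control replicate 3 and above the other 2 control libraries. The group means were 111 ± 2.04 CPM in BD, 79.0 ± 14.5 CPM in NBD and 43.5 ± 51.4 CPM in control (SD, n = 3 each). The log2 fold change was 0.49 ± 0.64 (SE) for BD against NBD, 1.34 ± 0.65 for BD against control and 0.86 ± 0.64 for NBD against control. For BD against NBD the fit without control replicate 3 gave 0.48 ± 0.18, also without a call.

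WNT4, a ligand known for kidney and female reproductive tract development, lies at chromosome 1, 22117305 to 22143969. Its levels were 42.5, 45.3 and 57.9 CPM in BD, 41.5, 27.2 and 44.6 CPM in NBD, and 0.867, 0.840 and 60.5 CPM in control. Control replicate 3 was thus the highest of all 9 libraries and control replicates 1 and 2 the lowest. The sorted groups overlapped, with a mean of 48.5 ± 8.19 CPM for BD and of 37.8 ± 9.28 CPM for NBD (SD, n = 3 each). The log2 fold changes were 0.36 ± 1.14 for BD against NBD, 1.22 ± 1.15 for BD against control and 0.85 ± 1.15 for NBD against control. For BD against NBD the fit without control replicate 3 gave 0.35 ± 0.21, also without a call. Without control replicate 3 the fold changes against control were 5.83 ± 0.34 for BD and 5.48 ± 0.34 for NBD. With control replicate 3 as sole control they were -0.32 ± 0.32 and -0.69 ± 0.31. The same pair of fits gave WNT10A 3.01 ± 0.23 and 0.10 ± 0.27 for BD against control, and 2.53 ± 0.23 and -0.39 ± 0.26 for NBD against control. An antisense gene, AL445253.1, overlaps WNT4 exons and had 0.0554 to 1.59 CPM of the unscaled library total.

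**Figure D1:**
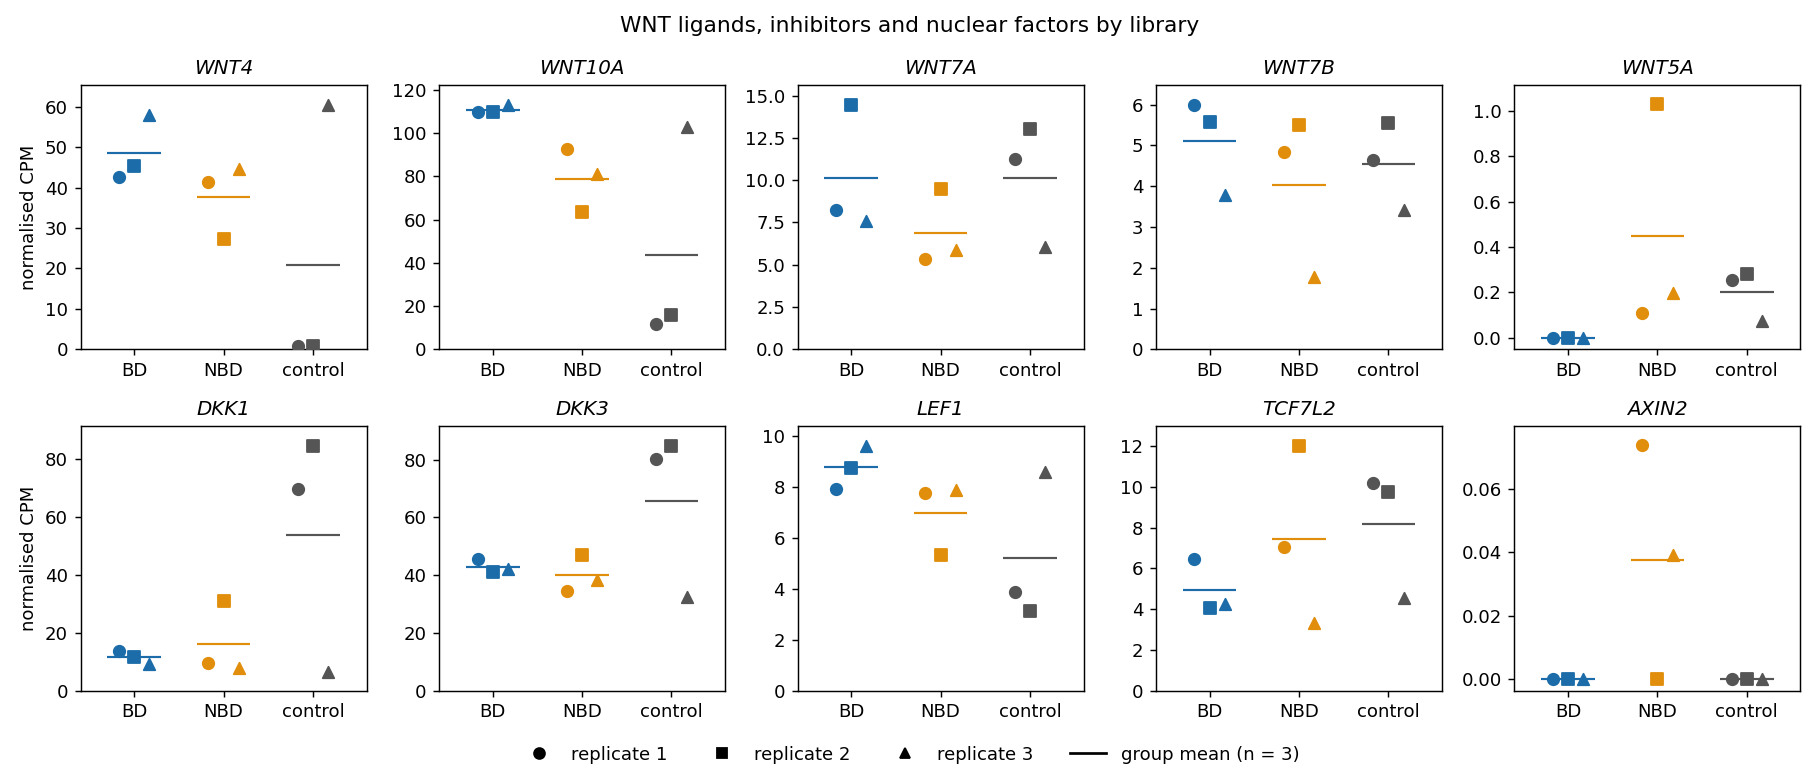
Normalised CPM (vertical axis, linear, a scale per gene) of the 10 genes in each library of BD, NBD and control, with a point per library, its shape giving the replicate number, and a line at the group mean. Control replicates 1 and 2 sit near 0 for WNT4 and above 69 CPM for DKK1, while control replicate 3 sits at 60.5 and 6.51 CPM, on the side of the sorted libraries.

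WNT7A and WNT7B are closely related ligands that are both made in epidermis. WNT7A (chromosome 3, 13816258 to 13880121) had 8.26, 14.5 and 7.57 CPM in BD, 5.33, 9.46 and 5.89 CPM in NBD, and 11.3, 13.0 and 6.06 CPM in control. In each group the range of WNT7A overlapped those of the other groups. Its log2 fold changes were 0.55 ± 0.37 for BD against NBD, -0.0020 ± 0.37 for BD against control and -0.55 ± 0.37 for NBD against control. Those against control were -0.26 ± 0.33 for BD and -0.80 ± 0.33 for NBD without control replicate 3, and 0.73 ± 0.47 and 0.17 ± 0.46 with it as sole control. WNT7B (chromosome 22, 45920362 to 45977129) had 6.00, 5.57 and 3.79 CPM in BD, 4.85, 5.50 and 1.77 CPM in NBD, and 4.64, 5.54 and 3.42 CPM in control. NBD replicate 3 was the lowest library for WNT7B and control replicates 1 and 2 lay within the range of BD. Its log2 fold changes were 0.34 ± 0.42, 0.18 ± 0.42 and -0.17 ± 0.42 in the same order of comparisons. Those against control were 0.02 ± 0.42 for BD and -0.32 ± 0.42 for NBD without control replicate 3, and 0.57 ± 0.58 and 0.22 ± 0.57 with it as sole control.

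WNT5A, the best known ligand of the beta-catenin independent branch (chromosome 3, 55465715 to 55490539), was not detected in BD. It had 0 counts in each BD library, 3, 25 and 5 counts in NBD, and 5, 5 and 2 counts in control. In CPM these are 0.111, 1.03 and 0.196 in NBD and 0.255, 0.280 and 0.0752 in control, and 3 counts, the floor used here, are 0.103 to 0.118 CPM in the BD libraries. Against that floor, averaged over the BD libraries at 0.108 CPM, BD was at least 4.12-fold lower than the NBD mean and at least 1.88-fold lower than the control mean. NBD replicate 2 held 25 of the 33 NBD counts, and without it the bound against NBD is 1.42-fold. Control replicate 3, at 0.0752 CPM, lay under the BD floor, so the bound against control rests on control replicates 1 and 2. The floor covers counting error only, and WNT5A did not pass the filter on low counts.

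Per kilobase of exon, the 19 ligand transcripts summed to 47.6, 49.1 and 51.7 normalised CPM in BD, 42.1, 32.9 and 38.0 in NBD, and 11.5, 13.3 and 49.4 in control. Every BD library lay above every NBD library in this sum, and control replicate 3 lay within the range of BD. WNT10A and WNT4 together made up 87.2%, 85.7% and 88.8% of it in BD, 86.0%, 75.0% and 88.4% in NBD, and 32.0%, 36.1% and 88.2% in control. WNT7A took 3.79%, 6.43% and 3.20% in BD, 2.76%, 6.29% and 3.39% in NBD, and 21.4%, 21.4% and 2.68% in control. Between 10 and 12 of the 19 ligands had more than 3 counts in a given library.

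**Figure D2:**
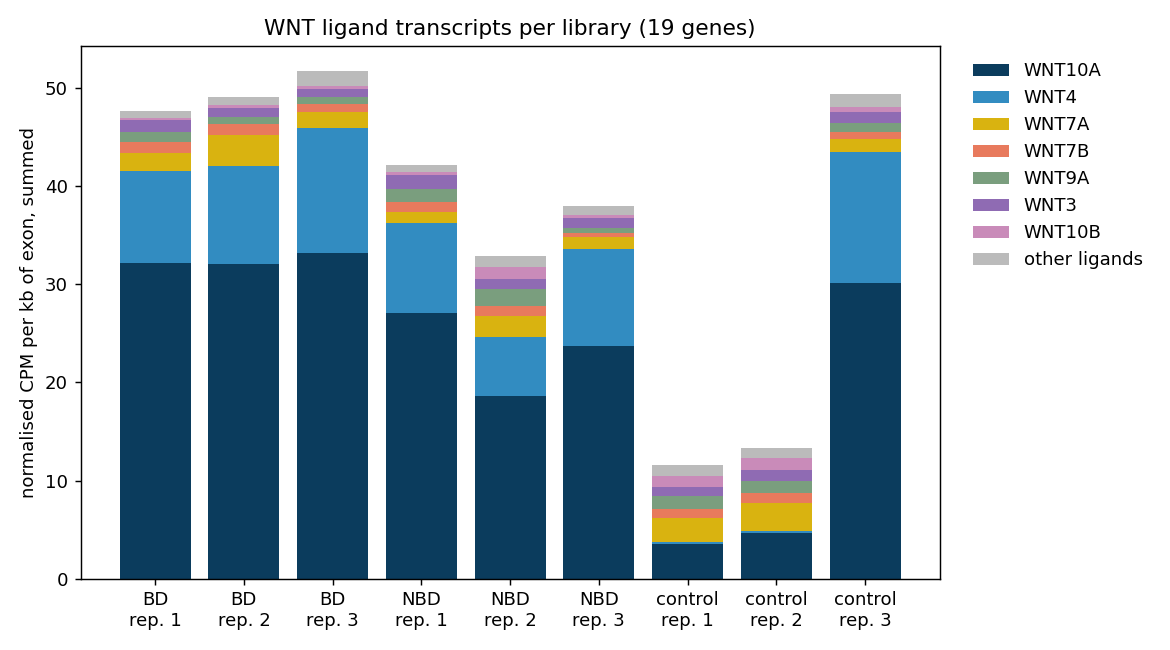
Stacked bars of normalised CPM per kilobase of exon (vertical axis) for the 19 WNT ligand genes in each library of BD, NBD and control, with named ligands in colour and the others summed in grey. The bars of control replicates 1 and 2 reach 11.5 and 13.3, where that of control replicate 3 reaches 49.4 and those of BD 47.6 to 51.7.

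DKK1 blocks canonical signalling by binding LRP5 and LRP6, and is itself a known target of the pathway. Its gene lies at chromosome 10, 52314296 to 52318042. It stood at 13.9, 11.6 and 9.05 CPM in BD, at 9.69, 31.0 and 7.90 CPM in NBD, and at 69.8, 84.7 and 6.51 CPM in control. Control replicate 3 was the lowest of all libraries and the other 2 control libraries the highest, with NBD replicate 2 next to them. The log2 fold changes were -0.49 ± 0.75 for BD against NBD, -2.22 ± 0.78 for BD against control and -1.73 ± 0.77 for NBD against control. Without NBD replicate 2 that of BD against NBD was 0.39 ± 0.76 and that of NBD against control -2.60 ± 0.83. Without control replicate 3 the values against control were -2.74 ± 0.47 for BD and -2.24 ± 0.46 for NBD, and with control replicate 3 as sole control they were 0.82 ± 0.67 and 1.29 ± 0.68. PRKG1-AS1, whose exons overlap DKK1 on the other strand, had 0 to 2.82 CPM of the unscaled total.

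DKK3, a divergent member of the Dickkopf family (chromosome 11, 11963106 to 12009769), had 45.5, 41.2 and 42.1 CPM in BD, 34.6, 47.0 and 38.2 CPM in NBD, and 80.4, 84.8 and 32.3 CPM in control. As for DKK1, control replicate 3 was the lowest library and control replicates 1 and 2 were the highest. The spread within BD was small, at 43.0 ± 2.29 CPM against 39.9 ± 6.38 CPM in NBD (SD, n = 3 each), and the 2 groups overlapped. The log2 fold changes were 0.11 ± 0.31 for BD against NBD, -0.61 ± 0.31 for BD against control and -0.72 ± 0.31 for NBD against control. Without control replicate 3 the last 2 were -0.93 ± 0.18 and -1.03 ± 0.18, and with it as sole control they were 0.40 ± 0.26 and 0.29 ± 0.25.

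LEF1 and TCF7L2 are DNA-binding partners of beta-catenin. LEF1, known in skin for its part in hair follicles (chromosome 4, 108047545 to 108168956), had 7.91, 8.74 and 9.60 CPM in BD, 7.77, 5.33 and 7.86 CPM in NBD, and 3.88, 3.14 and 8.58 CPM in control. All BD libraries lay above all NBD libraries, narrowly so for BD replicate 1 against NBD replicate 3, and control replicate 3 lay within the range of BD. Its log2 fold changes were 0.32 ± 0.37 for BD against NBD, 0.74 ± 0.37 for BD against control and 0.42 ± 0.37 for NBD against control. Without control replicate 3 those against control were 1.33 ± 0.28 for BD and 1.01 ± 0.28 for NBD, and with it as sole control they were 0.02 ± 0.34 and -0.30 ± 0.33. LEF1-AS1, on the other strand, had 0.145 to 0.543 CPM of the unscaled total.

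TCF7L2 (chromosome 10, 112950250 to 113167678) had 6.45, 4.04 and 4.27 CPM in BD, 7.07, 12.0 and 3.30 CPM in NBD, and 10.2, 9.74 and 4.55 CPM in control. NBD held both the highest and the lowest library, so all groups overlapped. Its log2 fold changes were -0.60 ± 0.47 for BD against NBD, -0.73 ± 0.47 for BD against control and -0.13 ± 0.46 for NBD against control. Without NBD replicate 2 the first was -0.07 ± 0.46. Those against control were -1.01 ± 0.43 for BD and -0.41 ± 0.43 for NBD without control replicate 3, and 0.10 ± 0.58 and 0.69 ± 0.60 with it as sole control.

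AXIN2, the scaffold protein of the beta-catenin destruction complex that is induced by canonical signalling (chromosome 17, 65528563 to 65561647), was not detectable at this depth. It had 0 counts in each BD library, 2, 0 and 1 counts in NBD, and 0 counts in each control library. In every library it was thus at or under the floor of 3 counts, 0.103 to 0.168 CPM, so no fold is given. A gene on the same strand, AC004805.1, overlaps AXIN2 exons and had 0 counts throughout.

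Per kilobase of exon, WNT10A ranked first among the 10 genes in 7 libraries and DKK1 in the other 2. In control replicates 1 and 2 DKK1 stood at 31.6 and 38.4 CPM per kilobase and DKK3 followed at 15.9 and 16.8. In BD the mean levels in the same unit were 32.5 for WNT10A, 10.7 for WNT4, 8.49 for DKK3, 5.22 for DKK1, 2.21 for WNT7A, 1.63 for LEF1, 1.01 for WNT7B and 0.730 for TCF7L2. NBD replicate 2 was the only sorted library in which DKK1 ranked above WNT4, at 14.1 CPM per kilobase.

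In the fit of all 9 libraries, 8 of the 10 genes passed the filter on low counts, the exceptions being WNT5A and AXIN2. With edgeR's quasi-likelihood test and p-values adjusted by Benjamini-Hochberg across 16921 genes, 0 of the 8 were called at an adjusted p under 0.05 for BD against NBD, where 0.0177% of all genes were called. For BD against control and NBD against control 0 were called as well, where 0% of all genes were called. At an unadjusted p under 0.05 there were 0, 1 and 2 of the 8, against 991, 2334 and 1545 of all genes. Those members were all lower, a share of 0%, 12.5% and 25%, where 3.82%, 9.06% and 5.08% of all genes were lower. Over all genes 2.04%, 4.73% and 4.05% were higher. DESeq2, which gave no adjusted p for WNT4 and WNT10A, called 0 in each comparison, where it called 0.273%, 1.07% and 0.255% of all genes. The median log2 fold change of the 8 was 0.33, 0.09 and -0.15, beside -0.02, 0.03 and 0.04 over all genes tested. Of the 10 genes, WNT10A and LEF1 were higher in BD than NBD without overlap of the groups and WNT5A, which is outside the genes tested, lower, where 7.19% of all genes tested were higher and 7.36% lower without overlap. For BD against control WNT10A was higher and WNT5A lower without overlap, where 8.05% and 7.72% of all genes tested were. For WNT5A the 0 counts in BD stand against 2 counts in control replicate 3 and 3 counts in NBD replicate 1. Both are at or under the floor of 3 counts, so its lack of overlap may be counting error. For NBD against control the count was 0 in each direction, where 4.67% and 3.75% of all genes were.

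Without control replicate 3, WNT4, WNT10A and LEF1 were called higher and DKK1 and DKK3 lower, 5 of 8 tested, in BD against control, where 24.3% of 17755 genes were called, 13.8% higher and 10.5% lower. The same 5 were called in the same directions in NBD against control, where 18.2% of all genes were called, 11.6% higher and 6.56% lower. For BD against NBD that fit called 0 of 8, where 0.0901% of all genes were called. With control replicate 3 as sole control 0 of 9 tested, WNT5A included, were called in either comparison with control, where 0% of all genes were, and 0 of 9 in BD against NBD, where 0.0478% were. These comparisons share their control libraries, and the genes were chosen with their levels known, so nothing further is read from the counts.

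**Figure D3:**
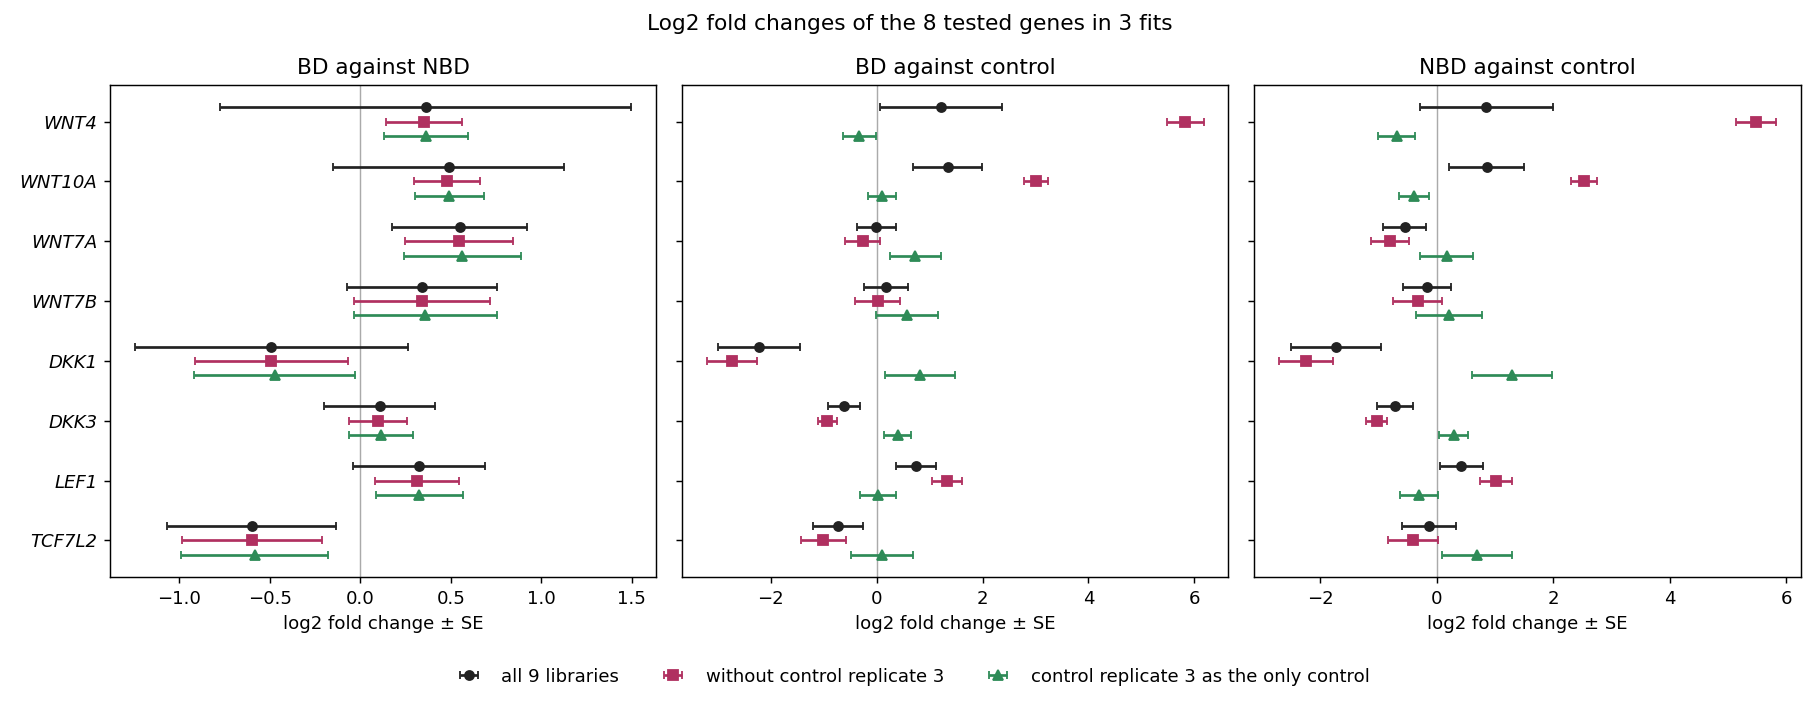
Log2 fold change with its standard error (horizontal axis) of the 8 tested genes in each comparison, from the fit of all 9 libraries, without control replicate 3, and with control replicate 3 as sole control. For BD against NBD the 3 fits give nearly the same fold changes but not the same standard errors. That of WNT4 is 1.14 with all 9 libraries, 0.21 without control replicate 3 and 0.23 with it as sole control. Against control WNT4 moves between -0.32 and 5.83 for BD and between -0.69 and 5.48 for NBD.

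The genes whose pattern over the 9 libraries was most like that of each member were found among 11620 other protein-coding genes, by the root mean square difference of centred log2(CPM + 0.5). For WNT4 these were TJP3, a tight junction protein, at 0.24 and C3, the central complement component, at 0.25. WNT10A was nearest to KDM1A, a histone demethylase, at 0.12 and to VGLL2, a cofactor of TEAD factors, at 0.13. DKK1 was nearest to LOXL2, a lysyl oxidase, at 0.23 and PPP2R2C, a phosphatase subunit, at 0.23. DKK3 was nearest to NMT2, an N-myristoyltransferase, at 0.10 and ITGA6, the integrin of hemidesmosomes, at 0.11. LEF1 was nearest to CADPS2 at 0.10 and PTPRH at 0.10, and TCF7L2 to RUNX1, a transcription factor, at 0.09 and FBN2, a fibrillin, at 0.15. For WNT7A these were KRT18, a keratin of simple epithelia, at 0.16 and STC2 at 0.18, and for WNT7B SART1 at 0.15. C3 ranged from 24.6 to 1089 CPM, KDM1A from 198 to 1469 CPM and LOXL2 from 5.46 to 73.6 CPM over the libraries. Others were low, with TJP3 from 0.102 to 27.4 CPM, VGLL2 from 0.0510 to 5.21 CPM, PPP2R2C from 0.236 to 7.60 CPM and PTPRH from 0.336 to 1.93 CPM. The added 0.5 CPM narrows the range of such genes on the log2 scale, so their likeness depends on it.

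Of 100 other genes of the pathway in 9 lists by role, 69 passed the filter with all libraries and 21 had at most 3 counts in every library. Not detected in this way were 6 of 14 other ligands, 7 of 11 genes listed as inhibitors, a list that also holds the membrane receptors KREMEN1 and KREMEN2, and 5 of 9 genes of the R-spondin module, among them LGR5, a stem cell receptor of R-spondins, with 0 counts throughout. By edgeR 0 of the 69 were called in each comparison. At an unadjusted p under 0.05, 4 were higher and 0 lower in BD against NBD, 2 higher and 8 lower in BD against control, and 1 higher and 8 lower in NBD against control. As shares of the 69 these were 5.80% and 0%, 2.90% and 11.6%, and 1.45% and 11.6%, where 2.04% and 3.82%, 4.73% and 9.06%, and 4.05% and 5.08% of all genes were higher and lower in the same comparisons. DESeq2 called 0 in each. The median log2 fold change of the 69 was 0.14, -0.09 and -0.24, beside -0.02, 0.03 and 0.04 over all genes.

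The core of the pathway was expressed in every library. Beta-catenin (CTNNB1) stood at 330 ± 11.1 CPM in BD, 331 ± 31.7 CPM in NBD and 380.1 ± 58.8 CPM in control (SD, n = 3 each). WLS, which carries WNT proteins to the cell surface, stood at 74.5 ± 3.25 CPM in BD, 69.7 ± 6.63 CPM in NBD and 76.1 ± 12.6 CPM in control. Among the receptors, FZD6, a Frizzled, had mean levels of 19.4 CPM per kilobase of exon in BD, 23.2 in NBD and 26.1 in control. RYK, a WNT receptor of the kinase type, had 12.7 CPM per kilobase in BD, 13.6 in NBD and 16.2 in control. TCF7L1, another TCF factor, had 0 to 6 counts per library.

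KREMEN1, a DKK1 receptor, was chosen after its values were seen and had the smallest unadjusted p of these genes in BD against NBD. It stood at 57.6, 49.8 and 67.8 CPM in BD, 43.0, 26.1 and 33.2 CPM in NBD, and 41.4, 45.5 and 57.9 CPM in control. All BD libraries lay above all NBD libraries, and the log2 fold change was 0.78 ± 0.22 without a call (edgeR, adjusted p = 0.705, from 0.189 to 1.00 over the alternatives). MYC, a known target of the pathway, stood at 242, 334 and 359 CPM in BD, 202, 212 and 211 CPM in NBD, and 206, 240.1 and 292 CPM in control. Its log2 fold change was 0.58 ± 0.21 for BD against NBD, also without a call (edgeR, adjusted p = 0.814, from 0.417 to 1.00 over the alternatives).

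Without control replicate 3, 17 of 70 other pathway genes tested were called in BD against control, 7 higher and 10 lower, a share of 24.3% where 24.3% of all genes were called. In NBD against control 12 of 70 were called, 4 higher and 8 lower, a share of 17.1% where 18.2% of all genes were called. By direction, 10.0% were higher and 14.3% lower in BD against control, where 13.8% and 10.5% of all genes were. In NBD against control 5.71% were higher and 11.4% lower, where 11.6% and 6.56% of all genes were. Whether these shares differ from those over all genes was not tested. FZD8, a Frizzled receptor, stood at 10.7, 9.21 and 10.7 CPM in BD, 7.73, 4.38 and 9.23 CPM in NBD, and 1.12, 1.85 and 12.4 CPM in control. Its log2 fold change without control replicate 3 was 2.79 ± 0.39 for BD (edgeR, adjusted p = 8.8e-04) and 2.28 ± 0.38 for NBD (adjusted p = 0.00293). TLE4, a corepressor of TCF factors, was at 1.80 ± 0.19 for BD (adjusted p = 2.2e-04) and 1.56 ± 0.19 for NBD (adjusted p = 6.0e-04). That fit was put forward after control replicate 3, the highest library for FZD8, was seen to differ from the other control libraries. Its adjusted p-values for single genes depend on that choice and are given as a description. With all libraries FZD8 was at 0.97 ± 0.71 and 0.45 ± 0.71 and TLE4 at 0.95 ± 0.41 and 0.71 ± 0.41, without a call, and the adjusted p of each reached 1.00 over the alternatives.

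Also called higher in that fit in BD against control were JUN, CELSR3, SFRP1, CTNNBIP1 and FZD4. Called lower were WNT10B, SOST, ROR1, LRP6, CCND1, TLE1, CD44, LGR4, PORCN and DAAM1. LRP6, the co-receptor that DKK1 binds, had 40.8, 29.4 and 27.7 CPM in BD, 47.6, 47.0 and 39.0 CPM in NBD, and 78.1, 74.6 and 37.9 CPM in control. CCND1, cyclin D1 and a known target, had 195, 210.2 and 179 CPM in BD, 148, 247 and 146 CPM in NBD, and 409, 472 and 184 CPM in control. For both genes control replicate 3 was below the other 2 control libraries and among the sorted ones. Their log2 fold changes for BD without control replicate 3 were -1.22 ± 0.20 for LRP6 (edgeR, adjusted p = 0.00207) and -1.17 ± 0.24 for CCND1 (adjusted p = 0.00613), and with all libraries -0.96 ± 0.27 and -0.87 ± 0.33 without a call. The adjusted p of each reached 1.00 over the alternatives, and those without control replicate 3 depend on leaving that library out. NBD against control called JUN, FZD8, TLE4 and APC higher and SOST, CCND1, ROR1, TLE1, AXIN1, CD44, LRP6 and PORCN lower.

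**Figure D4:**
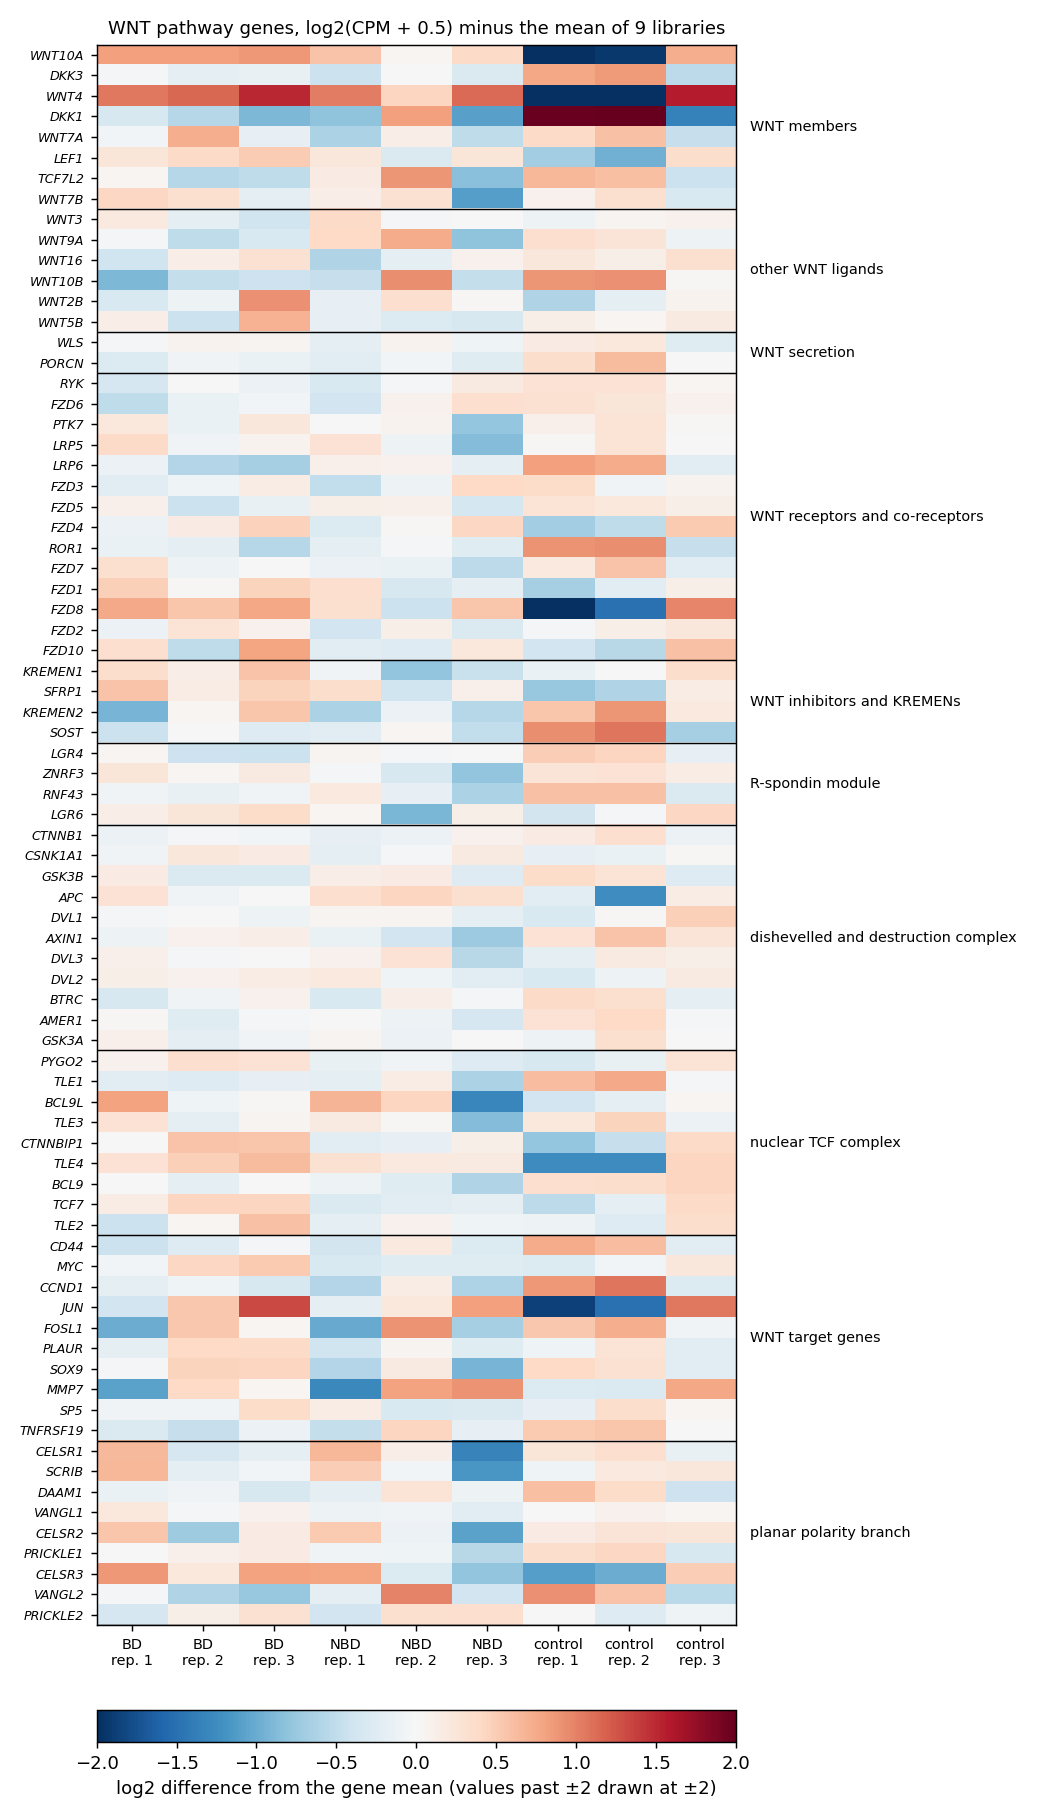
Colours give log2(CPM + 0.5) minus the mean of the 9 libraries for each tested gene (rows, grouped by role and ordered by mean CPM) in each library of BD, NBD and control (columns). WNT10A, WNT4, FZD8, TLE4 and JUN are blue and DKK1, DKK3, CCND1 and CD44 red in control replicates 1 and 2, and control replicate 3 has the opposite colour for each of them.

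NBD replicate 3 was the lowest library for 22 of the 77 tested genes of the pathway, the 8 members included, a share of 28.6%, and no other library was the lowest for more than 14. Over 16702 tested genes with a single lowest library, it was the lowest for 15.6%, and NBD replicate 1 and control replicate 1 were the lowest for 18.8% and 18.6%. The low value of WNT7B and of TCF7L2 in NBD falls in that library. Its part in the differences between BD and NBD was not tested.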

How the data were processed

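Whole-number read counts per gene for 9 HaCaT libraries were used as the authors deposited them. Per the submitters' processing notes, the tools were FastQC 0.74, Trimmomatic 0.39, STAR 2.7.11b and featureCounts with build GRCh38; no source used here states the annotation release, the strand setting or how multimapping reads were treated. RNA was extracted with 2 kits, per the labels' protocols, and which library had which is not stated. If counting ignored strand, reads of overlapping antisense genes would be included.

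Of the IDs, 61458 took their symbol from the gene name table supplied and 54 from GENCODE 29, which also gave exon lengths. Counts were scaled by TMM and fitted in edgeR 4.0.16 (R 4.3.3; filterByExpr, quasi-likelihood test), 1 term per group, 6 residual degrees of freedom, with p-values adjusted by Benjamini-Hochberg across every gene tested and calls at an adjusted p under 0.05. Alternatives were DESeq2 1.42.0, other scaling and filters, a replicate block, the compared groups alone and each library left out. The scripts were tested on simulated data. Promoter sequences came from RefSeq (GRCh38.p14).

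Members, lists and tests were chosen with earlier results of these data known. All 10 members are named; other genes are the most abundant or most changed of each list, a few set genes, and the 2 genes nearest in pattern to each member with a mean of at least 1 CPM. Some genes that these rules name are not reported here. Floors of 3 counts cover counting error only.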

Additional observations from a re-analysis of the deposited data

How the results depend on the processing

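By edgeR, 3 genes were called for BD against NBD and 0 for each comparison with control. Without a filter on low counts the numbers were 131 for BD against NBD, 1162 for BD against control and 594 for NBD against control, and with DESeq2 they were 50, 180 and 43. For BD against NBD, the 6 libraries of the compared groups alone gave 5 and control replicate 3 as the only control library gave 9. Leaving out each replicate gave 0 to 16, 0 to 4317 and 0 to 3228, the highest each without control replicate 3. The cause was not tested. With the replicate block 0 genes were called in each comparison. Same-numbered samples of different groups correlated at 0.002 to 0.657, not all over 0.1, where those with unlike numbers ran from -0.627 to 0.481. Values below 0 show that these are not plain correlations of expression levels. They do not measure how alike the libraries are as a whole. By the mean correlation with the libraries of each number, 7 of 9 libraries were best with their own number. Taken singly, BD replicate 2 and NBD replicate 3 were each other's best, at 0.481. Control replicate 1 was best with NBD replicate 2, at 0.438. Any pairing by number is thus a hint from the data and not the design. Without the filter, WNT5A was called lower for BD against NBD (1 of 10), WNT4 and WNT10A higher and DKK1 and WNT5A lower for BD against control (4), and WNT10A higher and DKK1 lower for NBD against control (2). Beside these stand the 131, 1162 and 594 genes called in that fit. The share of all genes is not given here, so nothing is read from the counts of members. DESeq2 gave no adjusted p for WNT4 and WNT10A. Of 378 recomputed fold changes of members, 28 moved by more than the standard error: 8 without control replicate 3, 14 with it as the only control library, 4 without NBD replicate 2 and 2 with the block. Using control replicate 3 alone was chosen after seeing the data and assumes that this library varies like those of the sorted groups. The fit without it was among the alternatives, but was put forward after that library was seen to differ. Depth limits AXIN2 and WNT5A, which lie at or near the floor of 3 counts in most libraries.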
